A study of Mus musculus with 27 samples.

Results

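Bone marrow cells of C57BL/6 mice aged 8 to 12 weeks were grown with Flt3 ligand (Flt3-L) and cyclosporin A (CsA), and the RNA of these cultures at 11 days was compared with that at 48 h. The comparison takes 6 of the 27 arrays of the series, chosen by their titles: the 3 CsA arrays at 11 days and the 3 CsA arrays at 48 h. Every one of these cultures held Flt3-L at about 200 ng/ml, made by transfected B16 tumour cells, and CsA at 2 µg/ml, which was added 30 min before the ligand and kept in the medium. The same interval in cultures with Flt3-L and no CsA, 3 arrays at each time, was measured for comparison. The remaining arrays are unstimulated cells and cultures at 12 h and 24 h.

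Flt3-L is the cytokine through which the receptor Flt3 drives marrow progenitors into conventional and plasmacytoid dendritic cells. Granulocytes, erythroid cells and B cells also come into such cultures with the marrow. CsA bound to cyclophilin blocks calcineurin, the calcium-dependent phosphatase whose action sends the NFAT factors into the nucleus. The series was designed to compare cultures with and without this block. The interval described here spans the late, differentiating phase of the culture with the block in place.

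The deposited values are array intensities, taken here as log2, and all levels below are log2 signals. A change is the log2 difference of the group means, 11 days minus 48 h, ± SE of the limma fit, with 3 arrays in each group. Adjusted p-values are Benjamini-Hochberg values of that fit over 19935 genes, and calls were made below 0.05. Array medians ran from 114.2 to 124.8 on the deposited scale, arrays of a group correlated at 0.9968 or above, and each of the 12 arrays used lay closest to an array of its own group. General leukocyte genes such as Ptprc and Cd53 were bright in both groups, the median level of the 12 genes listed being 12.26 at 48 h and 12.15 at 11 days, and the label of the samples is bone marrow cells. Of 10 housekeeping genes 2 rose and 1 fell. The marrow held many cell types, so that fewer cells of a type and less RNA per cell cannot be told apart in any change below.

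With CsA, 4747 genes rose (23.8% of those tested) and 3846 fell (19.3%) between 48 h and 11 days, 43.1% of the genes in all. At least 2-fold rises numbered 465 (2.33%) and at least 2-fold falls 754 (3.78%), so large falls outnumbered large rises. The 3 arrays at 11 days lay wholly above those at 48 h for 5959 genes (29.9%) and wholly below for 4492 (22.5%). Centring each array on its median changed the split to 6662 rises and 3289 falls, 66.9% of the calls being rises against 55.2% without it, and moved the median of all genes from 0.04 to 0.10. Without CsA 4821 genes rose (24.2%) and 3756 fell (18.8%), 43% in all, with 556 rises (2.79%) and 709 falls (3.56%) of at least 2-fold. Of the 4747 rises with CsA, 3745 were also called as rises without it, and of the 3846 falls 3113 were also called as falls. In addition 18 genes rose with CsA and fell without, and 57 fell with CsA and rose without. The test of the difference between the changes called 461 genes as higher with CsA (2.31%) and 926 as lower (4.65%), 6.96% in all. At least 2-fold differences were 28 higher (0.14%) and 108 lower (0.542%).

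**Figure D1:**
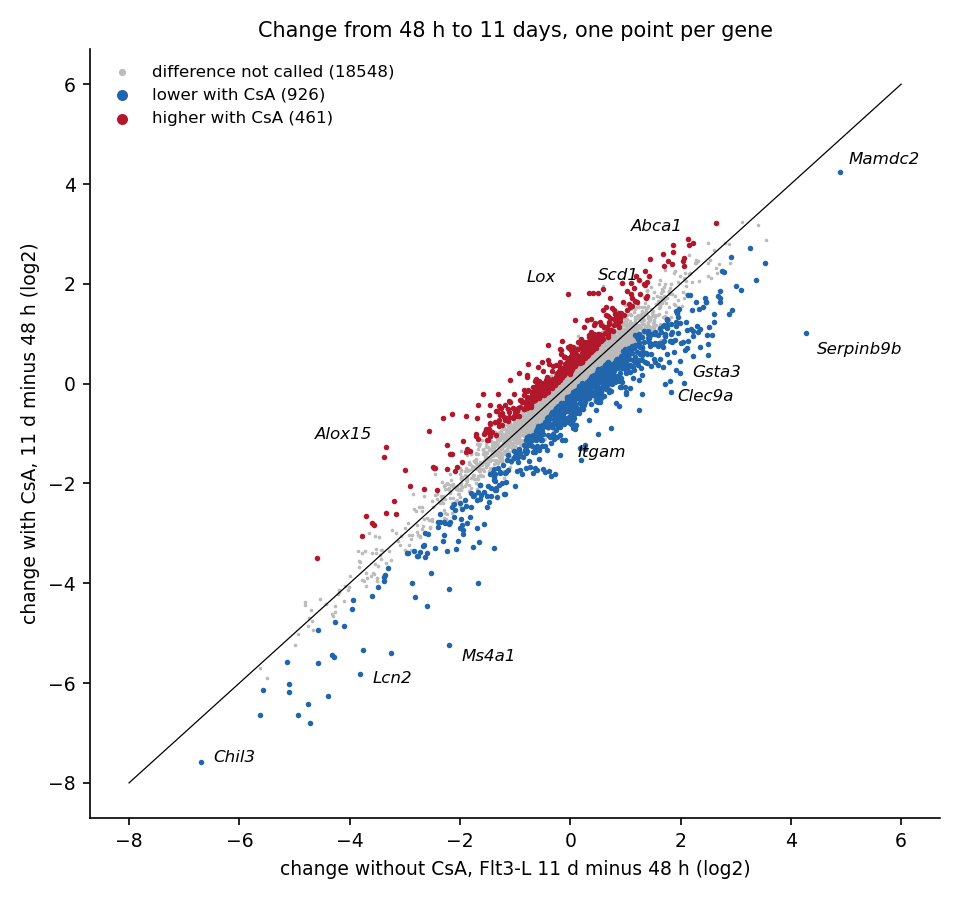
Change from 48 h to 11 days of each of 19935 genes, without CsA on the horizontal axis and with CsA on the vertical axis, both in log2 units; the line marks equal changes. Blue points are the 926 genes whose change was lower with CsA and red points the 461 whose change was higher, and 12 of the genes described are labelled, among them Serpinb9b and Ms4a1 below the line and Lox and Scd1 above it.

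Neutrophil products were among the largest falls of the interval. Chil3, a chitinase-like protein of neutrophils and some macrophages, read 11.76, 11.82 and 11.88 in the CsA arrays at 48 h and 4.33, 4.19 and 4.21 at 11 days. The groups were far apart, and the fall was 7.58 ± 0.12 (191-fold, adjusted p = 1.13e-24). It was the largest among genes admitted by the naming rule, which left out predicted, small RNA and receptor segment genes. Lactoferrin, Ltf, which binds iron in the secondary granules, read 12.48, 12.57 and 12.57 and then 6.00, 6.05 and 5.64, a fall of 6.65 ± 0.07. The alarmin S100a8 read 12.30, 12.36 and 12.36 at 48 h and 5.69, 6.26 and 6.30 at 11 days, a fall of 6.26 ± 0.10 (76.7-fold), and its partner S100a9 fell by 6.41 ± 0.07. In each of these genes the 3 arrays at 48 h were nearly equal and all 3 arrays at 11 days lay more than 5 log2 units lower. At 11 days 14% of all genes read below 5 and 29% below 6, so the arrays had little room below the end levels of these genes.

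The list of late neutrophil genes had 23 tested members, of which 21 fell and 1 rose, with a median change of -4.46 beside 0.04 over all genes. The resistin-like gene Retnlg fell by 6.64 ± 0.09 (99.8-fold), the chemokine receptor Cxcr2 by 6.13 ± 0.11, the surface marker Ly6g by 5.90 ± 0.13, the siderophore binder Lcn2 by 5.83 ± 0.07 (56.8-fold) and the cathelicidin Camp by 5.70 ± 0.09. Csf3r, the receptor for the granulocyte growth factor G-CSF, fell less, by 1.67 ± 0.08, from 11.25, 11.66 and 11.48 to 9.78, 9.77 and 9.81. The member that rose was Lyz2, the lysozyme that macrophages also make, at 0.17 ± 0.05 (adjusted p = 0.00551); it was named after its values were seen, and this call ended when the arrays were quantile normalized again (adjusted p = 0.107). Among 15 genes of primary granules and promyelocytes, 14 fell and none rose, with a median of -3.17. Myeloperoxidase, Mpo, fell by 5.02 ± 0.08, from 11.19, 11.37 and 11.27 to 6.13, 6.43 and 6.20, the elastase Elane by 4.75 ± 0.09 and the protease Ctsg by 5.23 ± 0.09. Cebpe, the transcription factor that directs secondary granule genes, fell by 2.98 ± 0.09 (7.9-fold).

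These genes fell without CsA too, and several of the falls differed in size. S100a8 read 12.37, 12.50 and 12.39 at 48 h and 7.86, 8.09 and 8.13 at 11 days without CsA, so that the arrays at 11 days lay above all CsA arrays of that day. The difference between its changes was -1.87 ± 0.14 (adjusted p = 2e-09). It was -2.02 ± 0.10 for Lcn2, -1.71 ± 0.10 for Ltf, -2.15 ± 0.18 for the granule protein Ngp and -0.89 ± 0.17 for Chil3. In all, 12 of the 23 late neutrophil genes had a change called as lower with CsA, against 4.65% of all genes, and 1 had a higher one, Csf3r at 0.82 ± 0.12. The primary granule genes Mpo (-0.08 ± 0.11) and Elane (-0.08 ± 0.13) were not called in this test. Mpo ended low in both cultures, at 6.13, 6.43 and 6.20 with CsA and 6.35, 6.59 and 6.74 without. At 11 days with CsA 48.1% of all genes read below 7, so a larger fall of Mpo had little room to show.

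**Figure D2:**
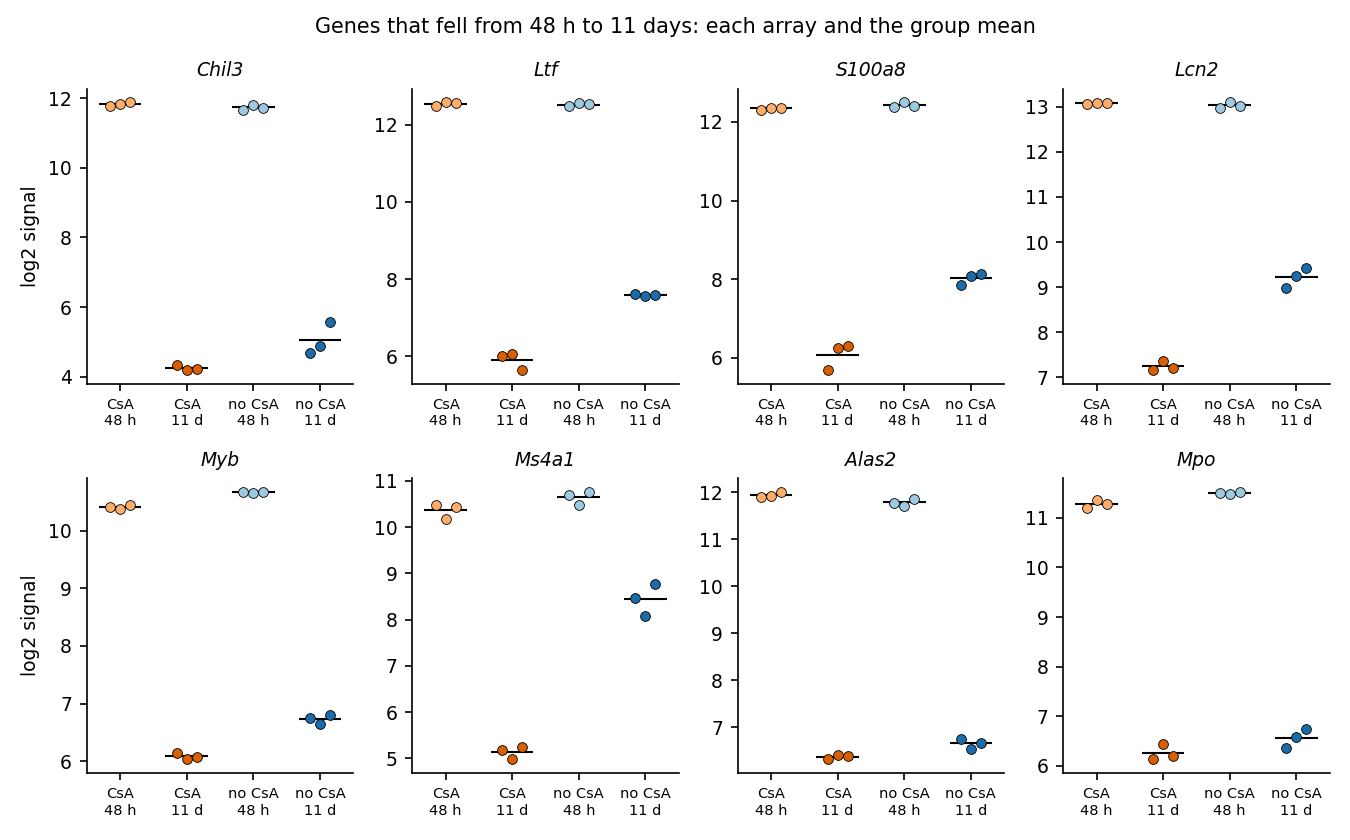
Log2 signal of 8 genes that fell, one point per array and a line at each group mean, for cultures with CsA (orange) and without (blue) at 48 h and 11 days. All 4 groups of 3 arrays are shown: at 48 h both cultures were high, and at 11 days Lcn2, Ltf, S100a8 and Ms4a1 were lower with CsA than without, while Mpo fell by 5.02 ± 0.08 with CsA and by 4.94 ± 0.08 without.

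Genes of stem and progenitor cells fell, 17 of the 21 tested, and 1 rose. Myb, the transcription factor that keeps progenitors immature, read 10.42, 10.37 and 10.44 at 48 h and 6.13, 6.03 and 6.08 at 11 days, a fall of 4.33 ± 0.05 (20-fold, adjusted p = 5.29e-27). The progenitor surface protein Cd34 read 10.38, 10.41 and 10.39 and then 6.20, 6.34 and 5.82, a fall of 4.27 ± 0.09. Both genes had dropped in every array, to a mean near 6. Angpt1 fell by 2.73 ± 0.14, Prom1 by 2.59 ± 0.13 and the transcription factor Erg by 2.13 ± 0.07. Kit, the receptor for stem cell factor, read 8.99, 9.11 and 9.05 at 48 h and 7.79, 7.05 and 7.15 at 11 days, the first array at 11 days being the highest of its group. Its fall of 1.72 ± 0.12 compares with 0.61 ± 0.12 without CsA, a difference of -1.12 ± 0.17 (adjusted p = 5.48e-05). The difference was -1.46 ± 0.12 for Cd34 and -0.39 ± 0.07 for Myb.

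Genes of other marrow lineages fell as well. Of 18 erythroid genes 15 fell and 1 rose, with a median of -1.50: Alas2, which makes the first intermediate of heme in red cells, fell by 5.58 ± 0.06 (47.9-fold), carbonic anhydrase Car2 by 5.34 ± 0.16 and the anion exchanger Slc4a1 by 4.93 ± 0.06. The member that rose was Tfrc, the transferrin receptor, which many dividing and iron-loading cells carry, at 0.99 ± 0.06; it too was named after its values were seen. Of 14 megakaryocyte and platelet genes 12 fell, led by the platelet chemokine Ppbp at -5.44 ± 0.14, with Gp9 at -2.83 ± 0.11 and the integrin Itga2b at -2.35 ± 0.12. Of 20 mast cell, basophil and eosinophil genes 14 fell and 1 rose, among them the eosinophil granule protein Prg2 at -4.05 ± 0.10 and the mast cell protease Cpa3 at -3.95 ± 0.12. The median was -1.46 with CsA and -1.99 without. The median level of the 20 genes was already lower with CsA at 48 h, 7.57 against 8.50 without. At 11 days it was 5.91 against 6.12. The difference was called as higher with CsA for 5 of the 20, against 2.31% of all genes, and as lower for 1, and some of these calls ended under other settings. Of 19 B-lineage genes 17 fell and 1 rose, with a median of -2.10.

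The B-cell genes split in the test against the cultures without CsA. Ms4a1, which encodes CD20 of mature B cells, read 10.47, 10.18 and 10.43 in the CsA arrays at 48 h and 5.17, 4.98 and 5.25 at 11 days. Without CsA it read 10.70, 10.48 and 10.77 and then 8.47, 8.08 and 8.78, so that the cultures were close at 48 h and wide apart at 11 days. Its fall was 5.23 ± 0.15 with CsA and 2.20 ± 0.15 without, a difference of -3.03 ± 0.21 (adjusted p = 4.51e-10). The antigen receptor chains Cd79a and Cd79b had differences of -1.85 ± 0.14 and -1.92 ± 0.14. Ebf1 and Pax5, the transcription factors that set and hold B-cell identity, fell by 3.96 ± 0.14 and 2.91 ± 0.10, with differences of -0.23 ± 0.20 and -0.21 ± 0.14 that were not called. Of the 19 genes, 4 had a change called as lower with CsA, against 4.65% of all genes. Another 5, against 2.31% of all genes, were called as higher, that is with a smaller fall. Among these 5, named after their values were seen, were the pre-B receptor component Igll1 (0.78 ± 0.16), Vpreb3 (0.74 ± 0.18) and the B-cell adaptor Bank1 (0.84 ± 0.11). The median level of the 19 genes was 9.07 with CsA against 9.55 without at 48 h, and 6.26 against 6.85 at 11 days. Bank1 stood at 8.70 with CsA against 9.24 without at 48 h, and at 8.26 against 7.95 at 11 days.

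Most cell cycle genes fell. All 27 genes of the G2 and M phases that were tested fell, by a median of 0.70, and none of them had a called difference between the cultures. Mki67, the proliferation antigen, read 11.40, 11.45 and 11.44 at 48 h and 10.53, 10.41 and 10.42 at 11 days, a fall of 0.97 ± 0.05 (1.97-fold, adjusted p = 1.6e-14). Kif11, a motor that separates the spindle poles, read 10.34, 10.43 and 10.35 and then 9.19, 9.04 and 8.91, a fall of 1.33 ± 0.06 (2.51-fold). Cdc20, the activator of the ubiquitin ligase that ends metaphase, read 8.80, 8.86 and 8.84 and then 7.77, 7.68 and 7.76, a fall of 1.09 ± 0.06. Each of the 3 genes had non-overlapping groups. The changes without CsA were -1.02 ± 0.05, -1.38 ± 0.06 and -0.94 ± 0.06. Of 29 G1 and S phase genes 19 fell and 3 rose, again with no called difference. E2f2 fell by 2.02 ± 0.06 (4.06-fold), the replication factors Dtl and Cdc45 by 1.11 ± 0.08 and 0.99 ± 0.05, while E2f1 rose by 0.82 ± 0.13 and the DNA clamp Pcna by 0.45 ± 0.06, both named after their values were seen. The D cyclins parted: Ccnd2 fell by 1.81 ± 0.07 and Ccnd3 by 1.71 ± 0.06, and Ccnd1 rose by 0.55 ± 0.07, from 10.71, 10.65 and 10.58 to 11.22, 11.25 and 11.14. Their partner kinase Cdk4 fell by 0.20 ± 0.05. Of the cell cycle inhibitors, Cdkn2d fell by 1.05 ± 0.09 and Cdkn1b by 0.68 ± 0.06, and Cdkn1c rose by 0.62 ± 0.07.

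Promoters of the mitotic genes are shown because the genes fell together and carry known cell cycle elements. Not every chromosome was eligible for this display. Among eligible promoters, the 150 bases before the start are given for the 3 members with the largest falls that hold both motifs there. The capitals mark the cell cycle homology region motif TTTGAA and the CCAAT box, each on either strand, in RefSeq promoters of build GRCm38.p6, written 5′ to 3′ on the strand of the gene.
Kif11, chr19:37376232-37376381, plus strand: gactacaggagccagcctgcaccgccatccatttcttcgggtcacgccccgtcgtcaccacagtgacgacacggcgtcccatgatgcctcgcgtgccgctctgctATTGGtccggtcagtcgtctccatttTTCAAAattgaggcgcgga
Cdc20, chr4:118437344-118437493, minus strand: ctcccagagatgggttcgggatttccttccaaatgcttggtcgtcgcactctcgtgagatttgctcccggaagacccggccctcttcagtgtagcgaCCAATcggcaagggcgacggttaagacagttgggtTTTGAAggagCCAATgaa
Mki67, chr7:135716380-135716529, minus strand: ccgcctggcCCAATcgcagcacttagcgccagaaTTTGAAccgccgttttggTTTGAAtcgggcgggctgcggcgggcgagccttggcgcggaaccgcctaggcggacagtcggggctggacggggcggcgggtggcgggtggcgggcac

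The TTTGAA motif starts 19 bases before the start of Kif11, where it is on the other strand and reads TTCAAA, and 18 before that of Cdc20, and lies at 116 and 98 bases in Mki67. In the window from 250 bases before to 50 after the start, it stood in 20 of 24 promoters of the G2 and M list (83.3%) and in 14.8% of the 19175 promoters of the genes tested. The CCAAT box stood in 87.5% of the G2 and M promoters and in 37.4% of all. The E2F forms TTCCCGC or TTGGCGC or TTCGCGC or TTGCCGC, searched together on both strands, stood in 18 of 29 promoters of the G1 and S list (62.1%), in 20.8% of the G2 and M promoters and in 12.8% of all. RefSeq promoters were found for 22 of the 27 G2 and M genes and 25 of the 29 G1 and S genes, some with several starts. A match of these letters is a description of the sequence and not a bound site.

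Lipid transport and macrophage genes were among the largest rises, which also held genes of no list. Mamdc2, a gene for a secreted protein, read 5.89, 5.85 and 5.96 at 48 h and 10.14, 10.14 and 10.12 at 11 days, with no overlap and almost no spread. The rise of 4.24 ± 0.08 (18.9-fold, adjusted p = 6.84e-23) was the largest among genes admitted by the naming rule, and compares with 4.90 ± 0.08 without CsA. The cholesterol exporter Abca1 read 9.51, 9.68 and 9.53 and then 12.40, 12.33 and 12.43, a rise of 2.81 ± 0.07 (7.02-fold). Pltp, which moves phospholipid between lipoproteins, read 9.93, 9.84 and 9.80 and then 12.69, 12.60 and 12.60, a rise of 2.78 ± 0.09 (6.84-fold). Both lipid genes ended among the brightest on the arrays, where 98.9% of genes read below 12. Also among the 15 largest rises were the synaptic vesicle protein Syn1 (3.23 ± 0.12), the adenylate kinase Ak8 (3.17 ± 0.09), the epoxide hydrolase Ephx1 (2.91 ± 0.12), Agmo, which cleaves ether lipids (2.82 ± 0.10), the small GTPase Rhoj (2.79 ± 0.09), the serotonin receptor Htr2b (2.71 ± 0.11) and the secreted macrophage protein Cd5l (2.67 ± 0.41). Cd5l had the widest error of these, its arrays at 48 h reading 10.69, 9.98 and 9.93 and at 11 days 12.84, 12.87 and 12.89. All 15 were also called as rises without CsA.

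**Figure D3:**
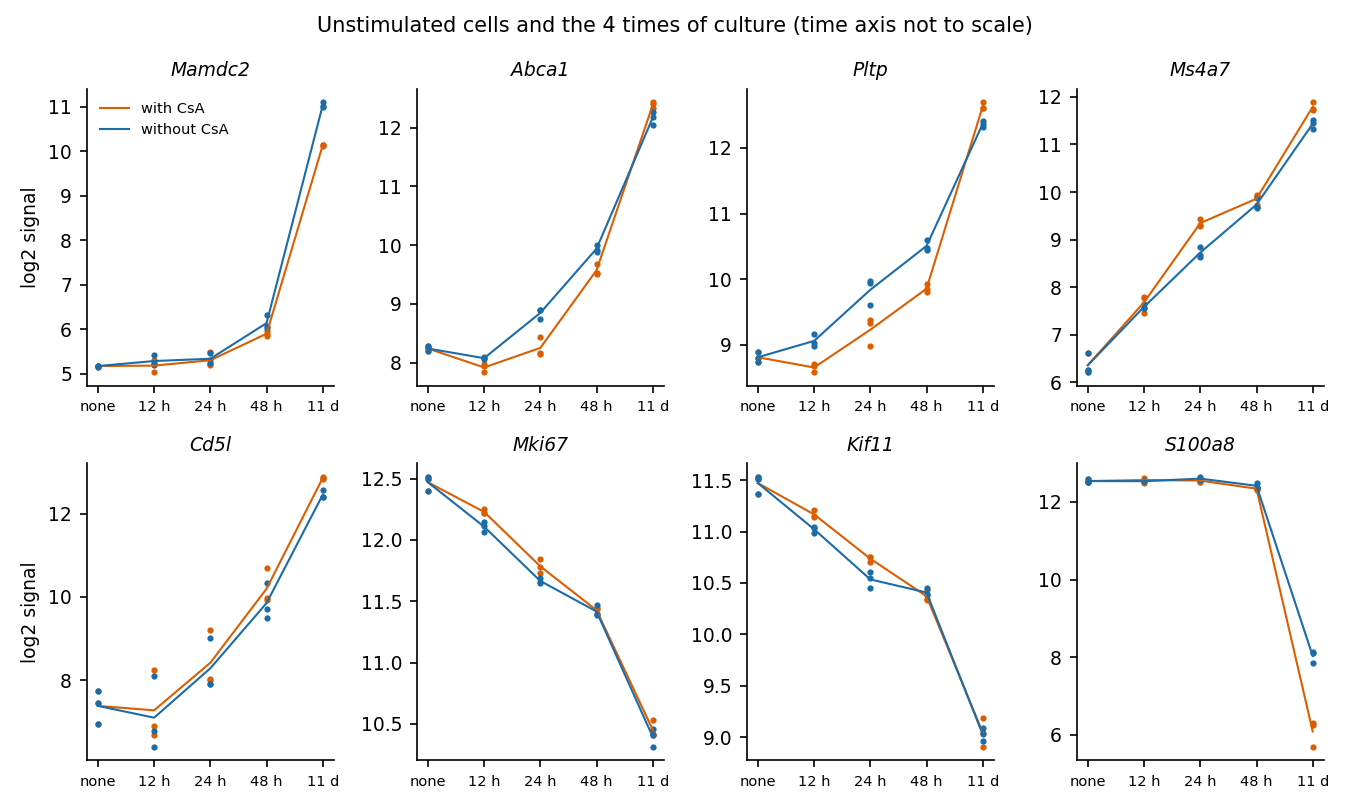
Log2 signal of 8 genes in unstimulated cells (none), then at 12 h, 24 h, 48 h and 11 days of culture with CsA (orange) and without (blue); points are arrays, lines join group means and the time axis is not to scale. Mamdc2 stayed near 5 to 6 until 48 h before its rise, the means of Ms4a7 and Cd5l were already higher at 48 h than in unstimulated cells, those of Mki67 and Kif11 were lower at each later time, and that of S100a8 stayed above 12 until 48 h.

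Group means of the earlier CsA cultures, given as levels with no test, place these changes in time. The mean level of Mamdc2 was 5.17 in unstimulated cells, 5.30 at 24 h with CsA and 5.90 at 48 h. Abca1 went from 7.92 at 12 h and 8.25 at 24 h to 9.57 at 48 h and 12.38 at 11 days. The macrophage gene Ms4a7 went from 6.36 in unstimulated cells to 9.86 at 48 h and 11.79 at 11 days. Flt3 itself went from 8.34 to 9.87 at 48 h, and stood at 8.55 at 11 days. S100a8 stood at 12.57, 12.55 and 12.34 over the first 3 times before it dropped.

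Of 27 macrophage genes tested, 21 rose and 1 fell, and the median change was 0.80 with CsA and 0.80 without. Besides Cd5l, the membrane protein Ms4a7 rose by 1.93 ± 0.10 (3.81-fold), the protease Ctsk by 1.72 ± 0.12, the mannose receptor Mrc1 by 1.40 ± 0.16 and the complement components C1qa and C1qc by 1.27 ± 0.15 and 1.20 ± 0.17. The fall belonged to Vsig4, a complement receptor of resident macrophages, which read 7.93, 6.89 and 6.98 at 48 h and 4.42, 4.76 and 4.47 at 11 days. Without CsA Vsig4 fell by 2.64 ± 0.38. Folr2, a folate receptor of macrophages that was named after its values were seen, was the list's only member with a called difference: it rose by 1.13 ± 0.14 with CsA and 2.52 ± 0.14 without, a difference of -1.39 ± 0.19 (adjusted p = 2.59e-05). Of 16 genes for Fc receptors and complement 12 rose and 1 fell, among the rises the Fc receptor Fcgr4 at 1.15 ± 0.10. The gene that fell was Itgam, the integrin chain of complement receptor 3 and CD11b. It read 11.82, 11.91 and 11.89 at 48 h and 10.79, 10.67 and 10.75 at 11 days with CsA, and 11.86, 11.92 and 11.88 and 11.76, 11.78 and 11.84 without. The CsA arrays at 11 days lay below all 9 others, and the change of -1.14 ± 0.05 differed from -0.09 ± 0.05 by -1.04 ± 0.06 (adjusted p = 7.04e-11).

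All 17 genes of cholesterol efflux and lipid handling rose with CsA, with a median of 0.60. The sterol transporter Abcg1 rose by 1.92 ± 0.07, Nr1h3, which encodes the oxysterol receptor LXR alpha, by 1.32 ± 0.08, and Mylip, which degrades the LDL receptor, by 0.98 ± 0.05. Without CsA 16 of the 17 rose, with a median of 0.62. The rise of Pltp was larger with CsA, at 1.86 ± 0.09 without it, a difference of 0.92 ± 0.13 (adjusted p = 2.47e-05), and that of Abca1 by 0.58 ± 0.10. In these genes the CsA cultures started lower at 48 h, Pltp at 9.80 to 9.93 against 10.44 to 10.60 without CsA, and at 11 days stood at 12.60 to 12.69 against 12.32 to 12.41.

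Of 28 lysosome genes 25 rose and none fell, by a median of 0.36. The median without CsA was 0.35. The protease Ctsl read 12.10, 11.92 and 11.78 at 48 h and 12.82, 12.89 and 12.89 at 11 days, a rise of 0.93 ± 0.08. The galactosidase Glb1 read 9.92, 9.99 and 9.91 and then 10.74, 10.72 and 10.81, a rise of 0.82 ± 0.06 (1.76-fold), and Gla, the other galactosidase, rose by 0.69 ± 0.07. Neither pair of groups overlapped. Many lysosomal genes carry an E-box that the factor TFEB binds. Among promoters eligible for display, the 3 members with the largest changes that hold TCACGTG within 150 bases before the start are shown. The motif is in capitals, and the RefSeq build is the same.
Glb1, chr9:114400928-114401077, plus strand: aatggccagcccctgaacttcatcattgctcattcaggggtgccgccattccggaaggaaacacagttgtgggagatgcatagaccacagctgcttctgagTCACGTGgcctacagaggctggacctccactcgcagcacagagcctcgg
Gaa, chr11:119267813-119267962, plus strand: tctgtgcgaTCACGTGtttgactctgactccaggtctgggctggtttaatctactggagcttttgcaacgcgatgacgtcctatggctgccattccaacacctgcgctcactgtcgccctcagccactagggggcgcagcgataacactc
Atp6v1a, chr16:44139260-44139409, minus strand: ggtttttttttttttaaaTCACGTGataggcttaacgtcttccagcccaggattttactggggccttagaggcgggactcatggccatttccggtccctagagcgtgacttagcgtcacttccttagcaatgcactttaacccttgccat

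The motif starts 49 bases before the start of Glb1, 141 before that of the glucosidase Gaa and 132 before that of the proton pump subunit Atp6v1a. Gaa rose by 0.56 ± 0.07 and Atp6v1a by 0.46 ± 0.05, and both were named after their values were seen, for these promoters. In the window of 250 bases before to 50 after the start, TCACGTG stood in 9 of 27 lysosome promoters (33.3%, 95% Wilson interval 18.6 to 52.2) and in 4.65% of all promoters, and 23 of the 28 genes had a promoter in the table. As above, the letters do not show that the factor was bound.

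Genes of dendritic cells rose in part and less with CsA than without. Of 22 genes shared by conventional dendritic cells 11 rose and 6 fell with CsA, against 14 and 4 without. The maturation genes Fscn1, an actin bundler, and Cd83 rose by 1.72 ± 0.14 and 1.65 ± 0.08, the chemokine Ccl22 by 1.60 ± 0.13 and the interleukin-12 chain Il12b by 1.63 ± 0.19. Itgax, which encodes CD11c, read 9.16, 9.16 and 9.16 at 48 h and 10.24, 10.32 and 10.22 at 11 days with CsA, and 9.29, 9.22 and 9.29 and 11.45, 11.38 and 11.56 without. Its rise was 1.10 ± 0.05 with CsA (2.15-fold) and 2.19 ± 0.05 without (4.58-fold), a difference of -1.09 ± 0.07 (adjusted p = 2.91e-10), and the groups at 11 days did not overlap. Flt3, the receptor of the ligand in the medium, fell from 9.89, 9.88 and 9.85 to 8.91, 8.42 and 8.30 with CsA and from 9.85, 9.88 and 9.86 to 9.45, 9.48 and 9.40 without. The falls of 1.33 ± 0.09 and 0.42 ± 0.09 differed by -0.90 ± 0.13 (adjusted p = 3.95e-05). The transcription factor Spib, used by plasmacytoid dendritic cells and B cells, fell by 3.31 ± 0.11 with CsA and fell by 2.08 ± 0.11 without, a difference of -1.24 ± 0.15. Of the 22 genes 12 had a change called as lower with CsA, against 4.65% of all genes, and none as higher. In a fit of the 4 groups alone 6 were called as lower.

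Type 1 conventional dendritic cells (cDC1), which take up dead cells and present to CD8 T cells, had 17 tested genes, of which 9 rose and 2 fell with CsA and 13 rose and none fell without. The median change was 0.33 with CsA and 1.13 without, and 10 of the 17 had a change called as lower with CsA, against 4.65% of all genes. The chemokine receptor Xcr1 read 7.61, 7.47 and 7.78 at 48 h and 9.27, 8.09 and 8.45 at 11 days with CsA, and 7.51, 7.59 and 7.47 and 10.20, 9.89 and 10.19 without. The first CsA array at 11 days was the highest of its 3, yet below every array without CsA. Xcr1 rose by 0.98 ± 0.17 with CsA and 2.57 ± 0.17 without, a difference of -1.59 ± 0.24 (adjusted p = 7.54e-05), and by 0.65 with CsA when that first array was left out. The dead-cell receptor Clec9a, named after its values were seen, read 8.12, 8.22 and 8.27 and then 8.71, 7.94 and 7.95 with CsA, groups that overlapped, and 8.05, 8.08 and 8.21 and then 9.93, 9.85 and 9.70 without. Its change with CsA was 0.00 ± 0.13 (adjusted p = 0.983), or -0.26 (adjusted p = 0.0187) without the first array at 11 days, and 1.71 ± 0.13 without CsA, a difference of -1.72 ± 0.18 (adjusted p = 5.84e-07). The integrin Itgae, CD103, rose by 0.66 ± 0.16 with CsA and by 0.33 without its first array at 11 days, against 2.09 ± 0.16 without CsA, a difference of -1.42 ± 0.23. Other genes of the list had no called difference: Cadm1, an adhesion molecule of these cells, rose by 1.40 ± 0.10 and 1.61 ± 0.10, and the lineage factor Irf8 moved by 0.10 ± 0.11 and 0.13 ± 0.11, neither of which was called.

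**Figure D4:**
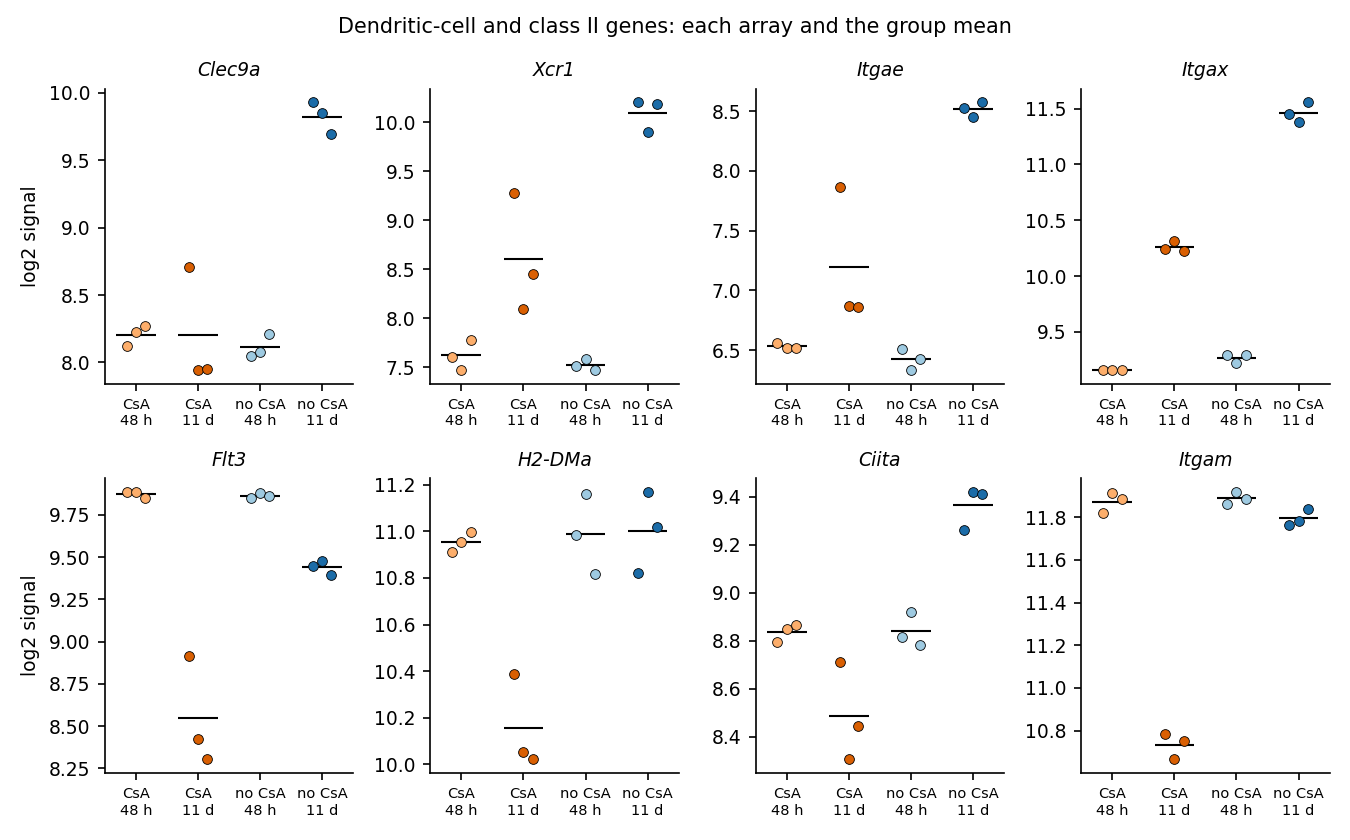
Log2 signal of 8 dendritic-cell and class II genes, one point per array and a line at each group mean, for cultures with CsA (orange) and without (blue) at 48 h and 11 days. The cultures were close at 48 h; at 11 days Clec9a, Xcr1, Itgae, Itgax, Flt3, H2-DMa, Ciita and Itgam were lower in all 3 CsA arrays than in any array without it, and the first CsA array lay highest of its 3 for each of the 8 genes but Itgax.

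Genes of type 2 conventional dendritic cells mostly fell, 11 of 18 with CsA and 10 of 18 without, and 2 rose in each. The regulator Irf4 fell by 1.77 ± 0.10, Cd7 by 2.03 ± 0.07 and the lectin Mgl2 by 1.13 ± 0.13, while Sirpa, which these cells share with macrophages and which was named after its values were seen, rose by 0.53 ± 0.04. Of 19 plasmacytoid dendritic-cell genes 10 fell and 7 rose with CsA. The surface receptor Siglech, a defining marker of these cells, read 10.47, 10.35 and 10.45 at 48 h and 7.91, 7.47 and 7.57 at 11 days, a fall of 2.77 ± 0.08. Without CsA it fell by 2.28 ± 0.08, a difference of -0.48 ± 0.12 (adjusted p = 0.00877). The chemokine receptor Ccr9 fell by 2.69 ± 0.14. The test of the difference called 5 of the 19 genes as lower with CsA, against 4.65% of all genes. It called 4 as higher, against 2.31%. Among the higher ones was Pltp, described above with the lipid genes, which this list also held. Another was Cox6a2, a cytochrome oxidase subunit named after its values were seen. It moved by -0.22 ± 0.15 with CsA, or by -0.48 (adjusted p = 0.000832) without the second array at 11 days. Without CsA it moved by -1.58 ± 0.15, a difference of 1.37 ± 0.21 (adjusted p = 7.22e-05).

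Genes of class II antigen presentation rose and fell with CsA and mostly rose without. Of 12 genes 4 rose and 4 fell with CsA, whereas 8 rose and none fell without. A change called as lower with CsA was found for 7 of the 12, against 4.65% of all genes, and as higher for none. The count of 4 rises was 2 without the first or the third CsA array at 48 h, or without the first at 11 days. Ciita, the master activator of class II genes, read 8.80, 8.85 and 8.87 at 48 h and 8.71, 8.31 and 8.45 at 11 days with CsA, and 8.82, 8.92 and 8.78 and 9.26, 9.42 and 9.41 without. It fell by 0.35 ± 0.08 with CsA (adjusted p = 0.000393) and rose by 0.52 ± 0.08 without, a difference of -0.87 ± 0.11 (adjusted p = 3.84e-06). The peptide editor H2-DMa fell by 0.80 ± 0.12 and its modulator H2-Ob by 0.66 ± 0.10 with CsA, and moved by 0.02 ± 0.12 and 0.02 ± 0.10 without, differences of -0.82 ± 0.17 and -0.68 ± 0.14. The class II chain H2-Aa, named after its values were seen, stayed bright, at 12.00, 12.03 and 12.08 and then 12.22, 11.95 and 12.00 with CsA; its change was 0.02 ± 0.07 against 0.40 ± 0.07 without, a difference of -0.38 ± 0.09 (adjusted p = 0.00912).

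**Figure D5:**
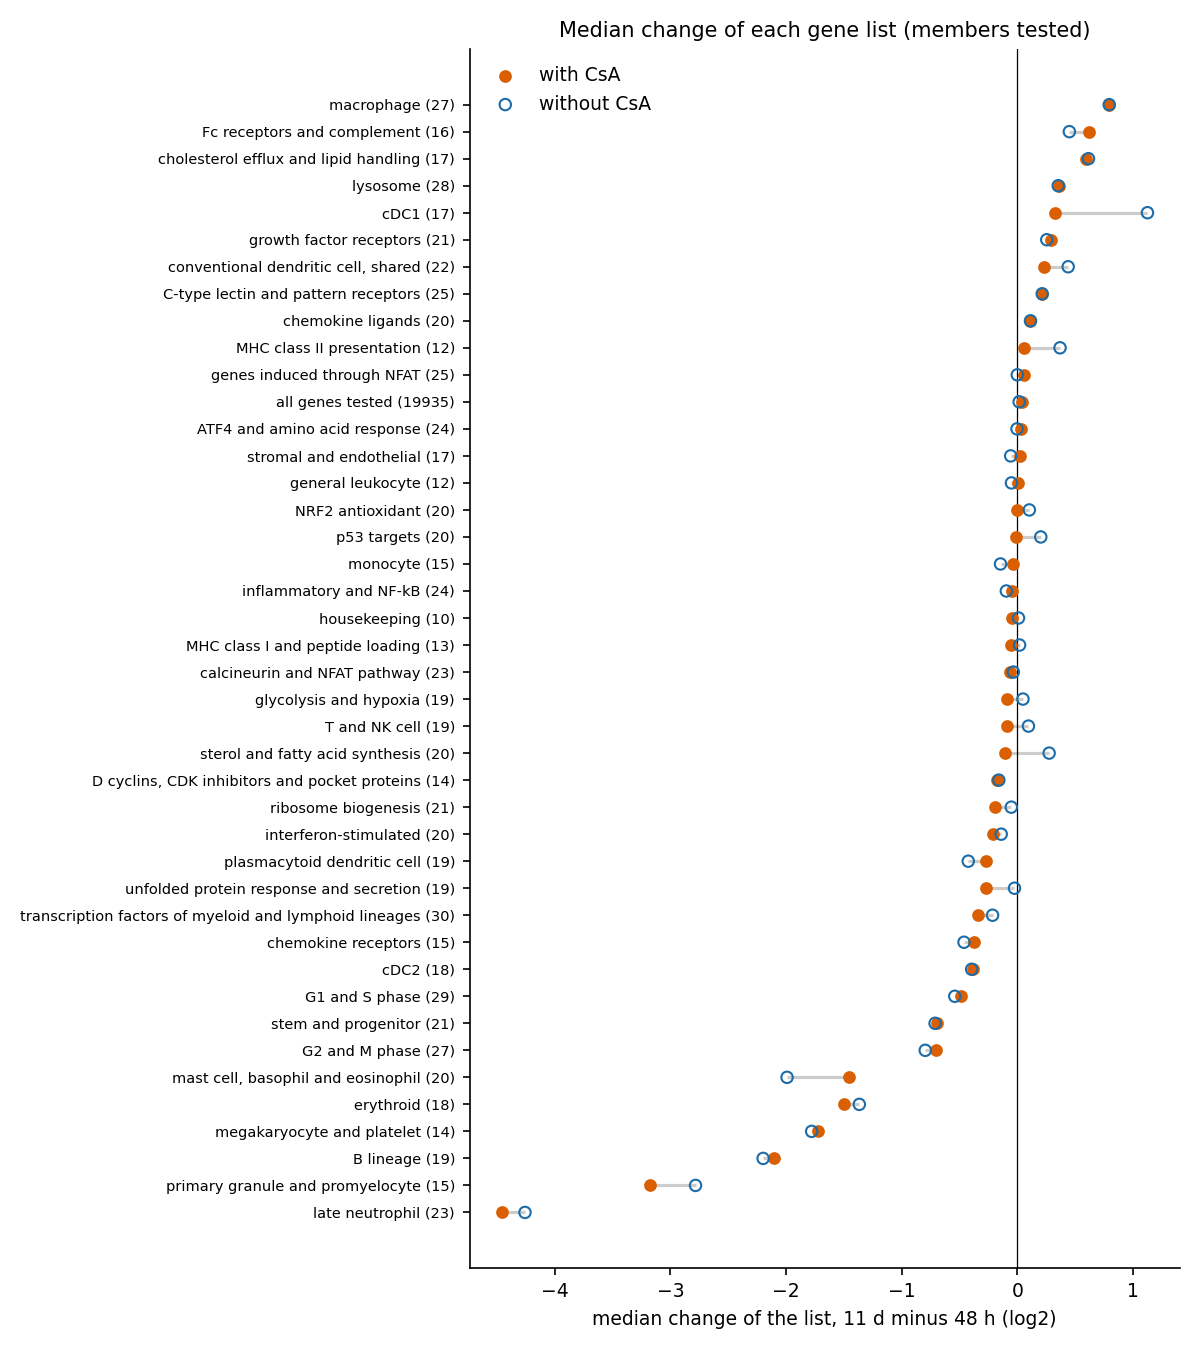
Median change from 48 h to 11 days of each gene list, in log2 units, with CsA (filled) and without (open); the number of members tested stands after each name, and all genes tested are shown for comparison. Late neutrophil genes had the lowest medians, -4.46 and -4.26, macrophage genes the highest with CsA, 0.80, and the cDC1 list the widest gap between the cultures, 0.33 against 1.13.

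Monocyte genes had no common direction, 7 rising and 7 falling among 15. The coagulation factor F13a1 fell by 4.06 ± 0.06 (16.7-fold) and the chemokine receptors Ccr2 and Cx3cr1 by 1.68 ± 0.09 and 1.32 ± 0.08. The lipopolysaccharide co-receptor Cd14 rose by 2.03 ± 0.11 (4.08-fold), fibronectin Fn1 by 1.56 ± 0.11 and Csf1r, the receptor for the macrophage growth factor M-CSF, by 0.54 ± 0.06. Ccr2 fell by 0.80 ± 0.09 without CsA, a difference of -0.88 ± 0.13 (adjusted p = 3.32e-05), whereas Cd14 rose by 1.40 ± 0.11 without CsA, a difference of 0.63 ± 0.16 (adjusted p = 0.0128). Of the 15 genes 3 had a change called as higher with CsA and 2 as lower, against 2.31% and 4.65% of all genes. The lower calls were 1 without the third array at 48 h without CsA. Of 19 T and NK cell genes 5 fell and 1 rose with CsA, beside 19.3% and 23.8% of all genes, and 4 fell and 6 rose without. The difference was called as lower with CsA for 7 of the 19, against 4.65% of all genes, and as higher for 1. Some of these calls ended under other settings. The cytotoxic granule gene Nkg7 fell by 3.17 ± 0.20 with CsA. Cd4, which dendritic cells and macrophages can also carry, rose by 0.83 ± 0.16. Of 17 stromal and endothelial genes 3 rose and 4 fell, shares near the 23.8% and 19.3% of all genes. Pecam1, which leukocytes share, fell by 2.68 ± 0.08, and Dcn, the matrix protein decorin of stromal cells, read 5.65, 5.79 and 5.70 at 48 h and 8.84, 6.60 and 7.59 at 11 days. The 3 CsA arrays at 11 days thus differed widely in this stromal gene, the first being the highest; its part in other results was not tested.

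Genes of the pathway that CsA blocks moved in both directions. Of 23 calcineurin and NFAT pathway genes 8 rose and 7 fell, beside 23.8% and 19.3% of all genes. The difference was called as higher with CsA for 2 of them, against 2.31% of all genes, and as lower for 1, Rcan1, against 4.65%. Rcan1, the calcineurin regulator that NFAT itself induces, read 8.40, 8.20 and 8.23 at 48 h and 8.62, 8.79 and 8.60 at 11 days with CsA, and 8.45, 8.43 and 8.27 and 9.15, 9.46 and 9.28 without. It rose by 0.39 ± 0.09 with CsA and 0.91 ± 0.09 without, a difference of -0.52 ± 0.13 (adjusted p = 0.0112), and the groups at 11 days did not overlap. Nfatc1 fell by 0.46 ± 0.06, Nfatc3 by 0.53 ± 0.05 and the kinase Dyrk1a, which exports NFAT from the nucleus, by 0.56 ± 0.04. Without CsA these fell by 0.56 ± 0.06, 0.56 ± 0.05 and 0.56 ± 0.04. Of 25 genes commonly induced through NFAT 8 rose and 6 fell, beside the same shares of all genes. The early response factors Egr2 and Nr4a3 rose by 1.32 ± 0.10 and 1.27 ± 0.12. The difference was called as higher with CsA for 2 of the 25 and as lower for 4, against 2.31% and 4.65% of all genes. Some of these calls ended under other settings.

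Chemokine genes gave examples in each direction. Ccl2 and Ccl7, which draw monocytes through Ccr2, were high with CsA at 48 h: Ccl2 read 10.34, 10.32 and 10.10 there, against 9.39, 9.06 and 9.34 without CsA, and at 11 days 8.12, 8.72 and 8.36 against 8.73, 8.99 and 8.99. Ccl2 fell by 1.85 ± 0.12 with CsA and 0.36 ± 0.12 without, a difference of -1.50 ± 0.17 (adjusted p = 1.09e-06), and for Ccl7 the difference was -1.36 ± 0.20. Ccl5, a T-cell chemokine, rose by 1.15 ± 0.12 with CsA and 2.30 ± 0.12 without, a difference of -1.14 ± 0.17. Cxcl16 rose by 2.46 ± 0.10 (5.49-fold) and Ccl4 by 1.20 ± 0.07, with differences of 0.68 ± 0.14 and 0.50 ± 0.10. Of 24 inflammatory and NF-kB genes 9 rose and 8 fell with CsA, beside 23.8% and 19.3% of all genes. A change called as higher with CsA was found for 7 and as lower for 2, against 2.31% and 4.65% of all genes. The higher calls were 4 without the second array at 11 days without CsA. Interleukin 1 alpha, Il1a, read 8.66, 8.53 and 8.45 at 48 h and 9.88, 10.17 and 10.02 at 11 days, a rise of 1.48 ± 0.14 against 0.59 ± 0.14 without CsA, a difference of 0.89 ± 0.20 (adjusted p = 0.00538). The bacterial lipoprotein receptor Tlr2, named after its values were seen, moved by 0.08 ± 0.10 with CsA (adjusted p = 0.576) and fell by 1.09 ± 0.10 without, a difference of 1.17 ± 0.14 (adjusted p = 4.01e-06).

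The lists described next stand beside all genes, of which 23.8% rose and 19.3% fell with CsA, and 24.2% and 18.8% without. Of 20 interferon-stimulated genes 8 fell and 3 rose, or 1 rose without the first CsA array at 48 h. Rsad2 fell by 1.35 ± 0.09 and Oas3 by 1.29 ± 0.10. Of 13 genes of class I presentation and peptide loading 4 fell and 2 rose with CsA, or 7 fell when the arrays were quantile normalized again, and 4 rose and none fell without CsA. The peptide transporter Tap1 fell by 0.62 ± 0.07 and the immunoproteasome subunit Psmb8 by 0.60 ± 0.10, while another such subunit, Psmb10, rose by 0.63 ± 0.15. Of 25 lectins and pattern receptors 13 rose and 6 fell: Tlr8, which senses RNA, rose by 1.44 ± 0.07 and the mycobacterial glycolipid receptor Clec4e fell by 3.57 ± 0.12. Of 21 growth factor receptors 13 rose and 6 fell, or 3 fell without the second CsA array at 11 days; the shared cytokine chain Il6st rose by 0.74 ± 0.06. Of 15 chemokine receptors 9 fell and 5 rose, with Cxcr5 of B cells at -1.58 ± 0.10.

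Genes of sterol synthesis, antioxidant defence and protein folding had called differences, most of them lower with CsA. Of all genes, 4.65% had a change called as lower with CsA and 2.31% as higher. Of 20 genes of sterol and fatty acid synthesis 5 rose and 9 fell with CsA, and 13 rose and 4 fell without. A change called as lower with CsA was found for 11, or 7 without the second CsA array at 11 days, and as higher for 1. Squalene synthase, Fdft1, read 10.24, 10.15 and 10.22 at 48 h and 9.33, 9.42 and 9.37 at 11 days, a fall of 0.83 ± 0.06 against 0.24 ± 0.06 without CsA and a difference of -0.59 ± 0.08 (adjusted p = 1.44e-05). The demethylase Cyp51, named after its values were seen, fell by 0.47 ± 0.07 with CsA and rose by 0.22 ± 0.07 without. The desaturase Scd1 ran the other way: it read 8.63, 8.46 and 8.68 and then 10.53, 10.15 and 10.54 with CsA, and 9.44, 9.34 and 9.50 and 9.99, 9.55 and 9.79 without. Its rise of 1.82 ± 0.11 exceeded that of 0.35 ± 0.11 without CsA by 1.47 ± 0.15 (adjusted p = 3.25e-07), with the CsA arrays lower at 48 h and higher at 11 days.

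Of 20 antioxidant genes under NRF2 5 rose and 9 fell. A change called as lower with CsA was found for 9, against 4.65% of all genes, and as higher for none. The cystine carrier Slc7a11 read 10.22, 10.50 and 10.39 at 48 h and 8.52, 8.67 and 8.58 at 11 days with CsA, and 10.38, 10.44 and 10.48 and 9.93, 9.90 and 10.09 without. It fell by 1.78 ± 0.10 with CsA and 0.46 ± 0.10 without, a difference of -1.32 ± 0.13 (adjusted p = 2.93e-07). The quinone reductase Nqo1 fell by 1.79 ± 0.16 and Gclm, a subunit of the enzyme that starts glutathione synthesis, by 0.89 ± 0.07, with differences of -1.12 ± 0.22 and -0.94 ± 0.10. The glutathione transferase Gsta3, named after its values were seen, moved by 0.22 ± 0.11 with CsA (adjusted p = 0.114), or by 0.31 (adjusted p = 0.0351) without the first array at 11 days, and rose by 1.99 ± 0.11 without, a difference of -1.77 ± 0.16 (adjusted p = 2.58e-08). The metallothionein Mt2 rose in both, by 2.16 ± 0.23 and 2.50 ± 0.23. Of 19 genes of the unfolded protein response and secretion 11 fell and 3 rose with CsA, against 5 and 4 without. A change called as lower with CsA was found for 8, beside the same 4.65% of all genes. The chaperone cofactors Sdf2l1 and Creld2 fell by 0.50 ± 0.11 and 0.51 ± 0.08 with CsA and moved by 0.10 ± 0.11 and -0.02 ± 0.08 without, differences of -0.60 ± 0.15 and -0.49 ± 0.12.

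Of 24 ATF4 and amino acid response genes 7 rose and 5 fell, near the 23.8% and 19.3% of all genes. A change called as higher with CsA was found for 5 and as lower for 1, against 2.31% and 4.65% of all genes. The lower calls were 2 without the first CsA array at 48 h. The higher ones include Asns (0.46 ± 0.09) and, named after its values were seen, Phgdh of serine synthesis (1.14 ± 0.13). The lower one was Slc7a11. Asparagine synthetase, Asns, rose by 0.52 ± 0.07, while the amino acid carrier Slc7a5 fell by 1.38 ± 0.06. The glucose carrier Slc2a3 fell by 3.72 ± 0.10 (13.2-fold) and the oxygen sensor Egln3 by 2.36 ± 0.11, among 7 falls and 3 rises of 19 glycolysis and hypoxia genes. Of 21 ribosome biogenesis genes 11 fell and 1 rose, led by the pseudouridine synthase Dkc1 at -0.97 ± 0.07. Of 20 p53 targets 8 rose and 7 fell: Phlda3, an inhibitor of Akt, rose by 1.96 ± 0.09 with CsA and 3.00 ± 0.09 without, a difference of -1.04 ± 0.12 (adjusted p = 2.32e-06), the kinase Plk2 rose by 1.43 ± 0.09 and the death receptor Fas fell by 1.58 ± 0.13. Of 30 lineage transcription factors 18 fell and 5 rose. Among the rises Maf, a factor of macrophages named after its values were seen, gained 0.97 ± 0.08 with CsA and 0.35 ± 0.08 without, a difference of 0.62 ± 0.12 (adjusted p = 0.000776).

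The largest differences between the intervals, by the naming rule, include genes whose change was called in only one of the cultures. Serpinb9b, a serine protease inhibitor gene, read 6.59, 6.47 and 6.43 at 48 h and 7.50, 7.53 and 7.49 at 11 days with CsA, and 6.32, 6.11 and 6.38 and 10.55, 10.29 and 10.81 without. It rose by 1.01 ± 0.10 with CsA and 4.28 ± 0.10 without (19.4-fold), a difference of -3.27 ± 0.14 (adjusted p = 1.72e-13), the largest among genes admitted by that rule. The collagenase Mmp13 read 7.73, 7.71 and 7.34 and then 7.51, 7.73 and 7.58 with CsA, groups that overlapped, and rose by 2.07 ± 0.12 without, a difference of -2.06 ± 0.17. The hepatocyte growth factor receptor Met moved by -0.16 ± 0.10 with CsA (adjusted p = 0.202) and rose by 1.83 ± 0.10 without, a difference of -1.99 ± 0.14. The NK receptor Klrb1a had a difference of -1.93 ± 0.12 at levels below 5 in all CsA arrays.

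Differences in the other direction were fewer and lay at either time. Lox, the enzyme that cross-links collagen, read 5.70, 6.15 and 6.21 at 48 h and 7.60, 7.88 and 7.95 at 11 days with CsA, and 5.80, 5.84 and 5.68 and 5.59, 5.98 and 5.66 without. It rose by 1.79 ± 0.13 with CsA and moved by -0.03 ± 0.13 without, a difference of 1.82 ± 0.18 (adjusted p = 2.16e-07). The lysosomal channel Mcoln3 rose by 1.81 ± 0.10 with CsA and 0.41 ± 0.10 without, a difference of 1.40 ± 0.14. Alox15, a lipoxygenase of eosinophils and some macrophages, was already low with CsA at 48 h, at 7.14, 7.58 and 7.69 against 9.24, 9.49 and 9.67 without, and at 11 days both cultures lay between 6.02 and 6.32. Its difference of 2.07 ± 0.17 (adjusted p = 1.12e-08) thus lay in the starting level. The same pattern held for Serpinb2 (1.89 ± 0.31), the proteoglycan Vcan (1.62 ± 0.25) and the adhesion receptor Adgre4 (1.54 ± 0.19). Among genes with at least a 2-fold difference called as lower with CsA, the gap between the cultures was wider at 11 days for 106 of 108. Among those called as higher it was wider at 11 days for 15 and at 48 h for 13 of 28.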

How the data were processed

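RNA of 27 cultures in 9 groups of 3 biological replicates, which is how the labels name them, was hybridised to 1-colour Affymetrix arrays. The deposited values are probe set intensities on a linear scale (5.2 to 18180.7), made by the authors with RMA per the submitters' processing notes. Log2 was taken here. Of 28815 probe sets, 21780 had 1 gene symbol in the platform annotation, 1605 several and 5430 none, and the brightest probe set stood for a gene (998 genes had more than 1), giving 19935 genes. All 27 arrays entered 1 group-means fit in limma 3.58.1 (R 4.3.3), with moderated two-sided tests and Benjamini-Hochberg adjustment over all genes. The test was checked on simulated data. The number of arrays and the spread between them limit the precision.

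Genes named were the 15 largest rises and falls, the 8 largest differences in each direction, up to 5 members of each list with the largest change, and some added names, leaving out predicted, small RNA and receptor segment genes. A further 19 genes were named after their values were seen. Members and the 41 lists were chosen with earlier results of these data known. Promoter letters were searched with Python 3.11.15 in RefSeq sequences.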

Additional observations from a re-analysis of the deposited data

Results flagged for a closer look

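For the genes listed here the interaction test in limma called a difference between the change with CsA and the change without it, given as log2, with CsA minus without. Genes described above whose called difference ended under another setting, such as Ccnd1 and Il12b, are not listed. Neutrophil genes with a negative difference, a larger fall with CsA, were S100a9 (-1.65), Retnlg (-1.02), Ngp (-2.15), Lcn2 (-2.02), S100a8 (-1.87), Ltf (-1.71) and Chil3 (-0.89). The progenitor genes were Cd34 (-1.46), Kit (-1.12), Flt3 (-0.90) and Myb (-0.39). The erythroid, platelet and endothelial genes were Car2 (-1.59), Ppbp (-1.12), Pecam1 (-0.57) and Alas2 (-0.45). Among B-cell genes it was positive for Bank1 (0.84), Igll1 (0.78) and Vpreb3 (0.74), and negative for Ms4a1 (-3.03), Cd79b (-1.92) and Cd79a (-1.85).

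Dendritic-cell and class II genes with a negative difference were Cd7 (-0.74), Clec9a (-1.72), Xcr1 (-1.59), Itgae (-1.42), Spib (-1.24), Itgax (-1.09), Ciita (-0.87), H2-DMa (-0.82), H2-Ob (-0.68), Siglech (-0.48) and H2-Aa (-0.38). So were the macrophage and integrin genes Folr2 (-1.39) and Itgam (-1.04), the chemokine genes Ccl2 (-1.50), Ccl7 (-1.36) and Ccl5 (-1.14) and the receptor Ccr2 (-0.88). The stress, metabolic and pathway genes with a negative difference were Cyp51 (-0.69), Gsta3 (-1.77), Slc7a11 (-1.32), Nqo1 (-1.12), Phlda3 (-1.04), Gclm (-0.94), Sdf2l1 (-0.60), Fdft1 (-0.59), Rcan1 (-0.52) and Creld2 (-0.49). Negative differences were also called for Nkg7 (-1.52), Mamdc2 (-0.66), Serpinb9b (-3.27), Mmp13 (-2.06), Met (-1.99) and Klrb1a (-1.93).

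A positive difference was called for Alox15 (2.07), Serpinb2 (1.89), Lox (1.82), Vcan (1.62), Adgre4 (1.54), Scd1 (1.47) and Mcoln3 (1.40). Metabolic and iron genes with a positive difference were Phgdh (1.14), Egln3 (0.83), Ephx1 (0.78), Tfrc (0.47) and Asns (0.46), and the monocyte gene Cd14 (0.63) had one too. It was also positive for Cox6a2 (1.37), Tlr2 (1.17), Pltp (0.92), Il1a (0.89), Csf3r (0.82), Cxcl16 (0.68), Maf (0.62), Abca1 (0.58) and Ccl4 (0.50). With 3 arrays in each group, single arrays were not tested as outliers.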

How the results depend on the processing

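With 1 array left out at a time, rises with CsA numbered 4105 to 5036 and falls 3557 to 3686. Without CsA the ranges were 4445 to 4820 and 3538 to 3622, and for the difference 362 to 460 higher and 721 to 913 lower. The other settings kept every one of these counts within 1.5 times. Averaging the probe sets of a gene turned the direction of 5 of the 8593 calls with CsA. Of 249 genes named, the change with CsA lost its call for Cdk6 when an array was left out, and for Cdk6 and Lyz2 under other settings. Of 119 genes named with a called difference, 19 lost it when an array was left out and 23 under other settings, and no such gene's difference is stated above.

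With the replicate number as a block, 4981 genes rose and 3965 fell with CsA, 4981 and 3881 without, and the difference was higher for 591 and lower for 1102. The labels tie equal numbers to no shared animal or day, and the unpaired fit was kept. Deviations of arrays with the same number correlated at -0.09, -0.02 and 0.01 between 48 h and 11 days with CsA, and at 0.22, 0.07 and 0.28 without. Between the cultures they correlated at 0.54, 0.18 and 0.19 at 48 h and at 0.01, 0.11 and -0.04 at 11 days. At 48 h only the first CsA array correlated most with the array of its own number. The second CsA array correlated at 0.23 with the third array without CsA, and the third CsA array at 0.22 with the second. Equal numbers thus did not mark pairs in every comparison made, and arrays at 12 h and 24 h were not compared in this way. Some genes did follow the number. The second array of Ms4a1 read lowest in every group. The first array of Cd5l read highest at 12 h, 24 h and 48 h in both cultures, at 8.24 against 6.90 and 6.68 with CsA at 12 h. A shared source of equal numbers was not tested, and any hint of pairing comes from the data and not the design. No named gene lost a called change or difference with the block. With 100 in place of 250 bases before the start, 83.3% of G2 and M promoters held TTTGAA and 22.2% of lysosome promoters TCACGTG. The deposited values give no depth or background signal, so changes at low levels are less certain.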
